A study of Arabidopsis thaliana with 5 samples.

Results

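The transgenic lines OE-*AhERF-VII* and OE-*AhDof-AI* were set against each other in optimal growth (Op), the state in which neither had been stressed. The comparison used 2 of the 5 arrays of the series, chosen by their labels as the Op array of each line, and all 26017 Arabidopsis loci named on 29234 of the 30000 spots. Each array carried RNA of an overexpressor in the Cy5 channel and RNA of wild-type (WT) plants in the Cy3 channel. The Cy5 channels gave the difference between the lines, and the Cy3 channels, which held like samples, gave the difference that the same spots showed between WT plants. Plants of all 4 channels were Col-0, and the labels give rosette leaves at 5 weeks of age, 16 h of light at 200 µmol m-2 s-1 and 22 °C, whereas the study's methods give younger plants. One line carried the group VII ethylene response factor gene *AhERF-VII* of grain amaranth, and the other carried the amaranth Dof factor gene *AhDof-AI*. According to the methods, both were homozygous T2 plants with a single insertion, and each factor was represented by 1 line only (EL25 and DL2, headed DL25ctr and CL2ctr in the scanner files). There was 1 array per line and no exchange of dyes, so no difference between lines has a replicate check, and line, plant culture and array cannot be told apart. The amaranth genes had no spot of their own among the named loci, so overexpression could not be checked on the arrays.

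Group VII ethylene response factors are activators of low-oxygen genes. They carry an N-terminal cysteine that is oxidized when oxygen is present, which sends the protein to proteolysis by the N-degron pathway, and they accumulate when oxygen falls. In Arabidopsis the group comprises RAP2.12, RAP2.2, RAP2.3 (EBP), HRE1 (ERF73) and HRE2 (ERF71). Dof factors are plant-specific zinc-finger proteins that bind short AAAG elements, and in Arabidopsis they act in flowering time (the cycling Dof factors), in germination (DAG1 and DAG2), in vascular development and in metabolism.

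The names of the spots need a caution before any locus is described. Where a transcript identifier was printed at more than 1 spot, the spots differed widely in brightness (r = 0.067 across 1547 pairs of such spots, net WT intensity on the OE-*AhDof-AI* array, log2), and pairs of one locus with other transcript identifiers gave r = 0.18 across 2629 pairs. The defining markers of the labelled tissue gave a mixed picture. Of 14 leaf markers, 11 were above background in at least 1 line, and their list had a median brightness at the 61.9th percentile of all loci in OE-*AhERF-VII* and at the 56.9th in OE-*AhDof-AI*. Of 8 seed markers, 4 were above background, with list medians at the 47.2th and 50.6th percentiles. The spot of *CAB1*, a light-harvesting protein, gave a net intensity of 9535 in OE-*AhERF-VII* and 11350 in OE-*AhDof-AI*. Those of *CAB2*, of the same family (43.4 and 68.6), and of *RBCS2B*, a small subunit of Rubisco (56.4 and 127), were not above background, nor was that of *PSBO1*, a subunit of photosystem II (239.8 and 279.5). Every value below therefore belongs to the spot with a given name in the files, and is not shown to measure the transcript of that name.

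Net intensity (the mean raw brightness of a spot minus its local background) had a median over gene spots of 726 in OE-*AhERF-VII* and 1001 in OE-*AhDof-AI*, and of 1399 and 1460 in the WT channels beside them. The channels of one dye were brought to the same distribution by quantile scaling. Net intensities are given in the text before scaling and log2 differences after it, so a difference can depart from the ratio of the printed intensities. Scaled values were limited from below by a floor, the higher of the 95th percentiles of the 510 empty spots (308 for Cy5 and 428 for Cy3 after scaling). The highest net intensity of any empty spot was 11326 in OE-*AhERF-VII* and 9909 in OE-*AhDof-AI*. Of the 26017 loci, 18523 were above background in at least 1 line, 16275 in both, and 7494 in neither. All 4 channels were above background for 16270 loci.

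With the processing used here, the Cy5 channels of the lines differed somewhat more than the Cy3 channels of WT plants on the same arrays, and mostly at the same spots. The shares of loci past 2-fold rest on different sets of measured loci and different floors. At least 2-fold higher intensity in OE-*AhERF-VII* was recorded for 1518 of 18523 loci (8.2%), and at least 2-fold lower intensity for 1474 (7.96%). Between the WT channels, 1203 of 21614 loci (5.57%) were at least 2-fold higher on the OE-*AhERF-VII* array and 1267 (5.86%) were lower. Across the 16270 loci above background in all channels, the log2 difference had an SD of 0.74 between the lines and of 0.65 between the WT samples. This order depended on the normalization. It was the other way with the authors' normalized intensities (0.68 for the lines and 0.72 for WT). The same held with normexp, loess and Aquantile (0.66 and 0.70), while the other alternatives kept the order. The differences of the 2 dyes followed each other (Pearson's r = 0.93, Spearman's rho = 0.90 across loci, which share the spot, the array and the place on it). Of the 1518 loci higher in OE-*AhERF-VII*, 1517 were also higher in the WT sample beside it, and 935 (61.6%) by at least 2-fold. Of the 1474 lower loci, 1473 were lower in WT, and 1066 (72.3%) by at least 2-fold. A direct difference of 2-fold between the overexpressors was thus mostly present between their WT controls too.

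The log2 difference between the lines minus that of WT at the same spots, called the WT-corrected difference here, had an SD of 0.27 and a median of 0.02 over the 16270 loci. Its middle 95% lay between -0.52 and 0.56. Scaling by medians in place of quantiles moved the median to 0.15, so small list medians have to be read against that shift. In RNA of whole leaves, fewer cells of a type and less RNA per cell cannot be told apart. The spread changed little with brightness, from an SD of 0.29 to one of 0.25 between the dimmest and the brightest of 4 equal groups of loci. Position on the array moved with the direct difference. The medians of the 48 print blocks, the squares of spots laid down by one pin, ranged from -1.08 to 0.88 between the lines, from -0.93 to 0.66 between WT samples, and from -0.19 to 0.25 after WT correction.

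**Figure D1:**
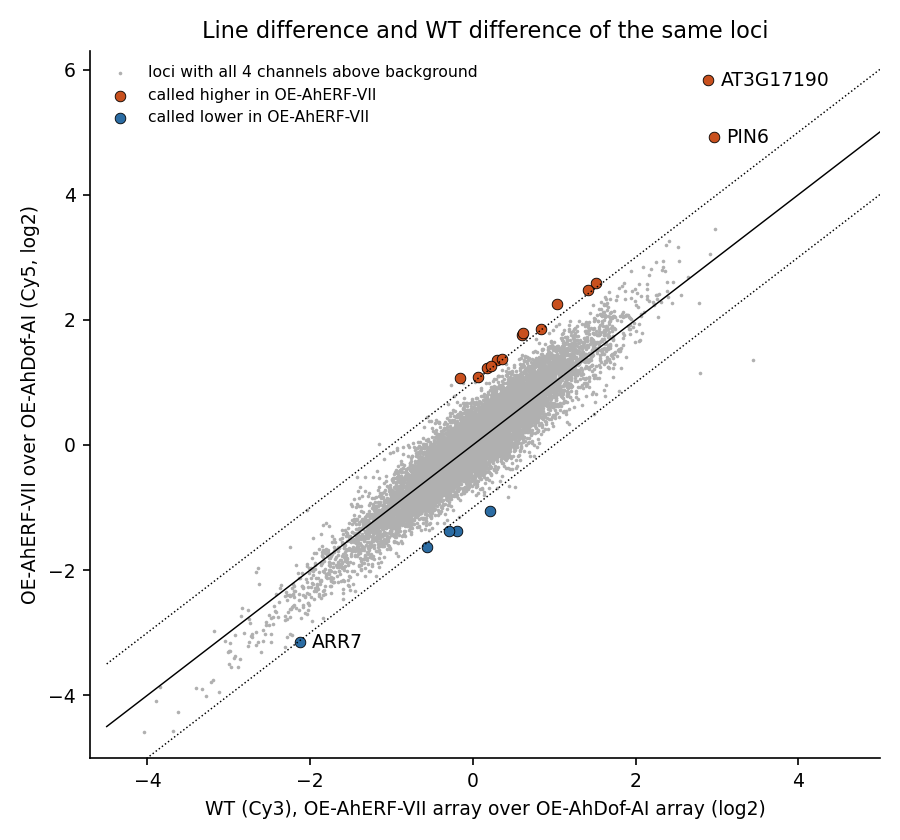
Each point is a locus, with the log2 difference between the WT channels on the x axis and that between the overexpressor channels on the y axis. The solid line marks equal differences, the dotted lines mark 2-fold beyond WT, and the 14 loci called higher and 5 called lower in OE-*AhERF-VII* are coloured. The 16270 loci follow the solid line (r = 0.93).

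Control probes printed many times showed how far one sequence varied over the arrays. *ACT2*, which codes for an actin used as a reference gene, had 24 control spots with median net intensities of 1841 in OE-*AhERF-VII* and 3344 in OE-*AhDof-AI*, and of 2840 and 5156 in the WT channels. Its direct log2 difference was -0.34 ± 0.80 (SD over 24 spots of 1 hybridization each), and its WT-corrected difference was 0.36 ± 0.13. WT correction reduced the spread between the spots and turned the sign. Over 12 other control probes with at least 8 spots above background, the SD between spots had a median of 0.42 for the direct and of 0.12 for the WT-corrected difference. The means of those probes after correction ranged from -0.13 to 0.71. The highest belonged to Alien5 (0.71 ± 0.07, SD, 8 spots), one of the probes named Alien in the files. The sources used here do not say whether RNA matching them was added to the samples. A WT-corrected difference over 1.5-fold (0.58 on the log2 scale) thus also occurred at a control probe, with little spread between its spots.

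**Figure D2:**
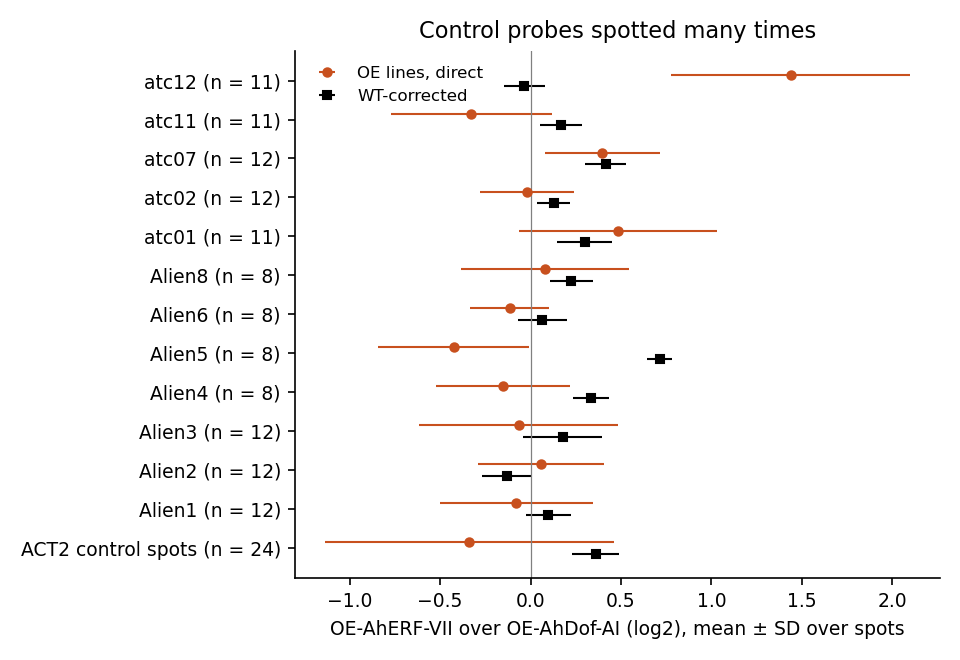
The x axis gives the log2 difference of OE-*AhERF-VII* over OE-*AhDof-AI*, as the mean and SD over the spots of each control probe (number of spots in parentheses), before (circles) and after (squares) WT correction. After correction the bars shorten at every probe shown, and *ACT2* stands at 0.36 and Alien5 at 0.71.

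A locus was called where the lines differed at least 2-fold and where at least 2-fold in the same direction remained after WT correction. By this rule 14 of 18523 loci (0.0756%) were higher in OE-*AhERF-VII* and 5 (0.027%) were lower. The same rule with the dyes exchanged called more loci between the like WT samples, 29 of 21614 (0.134%) higher on the OE-*AhERF-VII* array and 9 (0.0416%) lower. Both rules use the same difference between the dyes, so a line difference can also enter the WT count. The floors and the sets of measured loci differ too, so the WT count is not an independent rate of false calls. Of the 29, 10 lay in 2 neighbouring print blocks of the same block row, between spot rows 12 and 20, although these blocks hold 4.21% of gene spots. Without those blocks, a choice made after seeing the data, 19 and 9 WT loci were called, and 14 and 4 between the lines. With the processing used here, the number of calls between the lines was not above that between like samples. It was above with the authors' normalized intensities for higher loci (61 against 40), without a floor in both directions (292 and 344 against 21 and 18), and for lower loci with only spots above background in the compared channels (5 against 2). At many WT calls both lines lay below background, so the line difference was set to 0 and could not offset that of WT. Among the 16270 loci above background in all channels, 12 were called higher and 5 lower between the lines. Between the WT samples, only *EMB2719*, AT3G51330 and AT4G17480 were called among these loci. Median scaling changed the split between the lines to 19 higher and 1 lower. All 19 called loci had a single spot, so none has a second spot to set beside it.

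The auxin carrier gene *PIN6* (AT1G77110) showed the largest call with both lines above background. Its net intensity was 12504 in OE-*AhERF-VII* against 533 in OE-*AhDof-AI*, and 18163 against 2801 in the WT samples beside them. The direct log2 difference was 4.92 and the WT-corrected difference 1.96, that is 30.3-fold directly and 3.90-fold beyond WT. AT3G17190, which has no name in the reference table, read 15552 in OE-*AhERF-VII* and 157, not above background, in OE-*AhDof-AI*. It was at least 57.2-fold higher in OE-*AhERF-VII* and stood at 17384 against 2809 in WT, which left at least 7.73-fold beyond WT. Both loci were thus also far higher in the WT sample of the OE-*AhERF-VII* array. At these loci the surrounding spots differed less, since 13 spots within 2 rows and columns of *PIN6* had a median direct difference of -0.28, and 17 spots around AT3G17190 one of 0.61. Over the 19 called loci, the median of the surrounding spots had the sign of the call at 16. It reached at least 0.5 of the locus's own direct difference at 2, namely at *NTT* (0.81 beside 1.35) and at AT1G49015 (-1.17 beside -1.38).

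The other loci called higher in OE-*AhERF-VII* included genes of auxin, light and phosphate responses. *SAUR68* (AT1G29490), of the small auxin-upregulated genes, read 1477 against 342, with 2091 against 742 in WT (direct 2.59, WT-corrected 1.07). *LNK3* (AT3G12320), named for its induction by light at night and its control by the clock, read 1187 against 343, with 1660 against 815 in WT (2.25 and 1.22). *MIR399c* (AT5G62162), the precursor locus of a miRNA of the phosphate-starvation response, read 1727 against 693, with 2035 against 1220 in WT (1.85 and 1.02). In each of these the WT samples differed in the same direction, by 0.83 to 1.52 on the log2 scale. Once print-block medians were removed, *SAUR68* (direct 2.11) and *MIR399c* (1.70) stayed past 2-fold directly but lost their calls. *LNK3* (1.74) kept its call.

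*SUC6* (AT5G43610), a sucrose-proton symporter gene, read 878 in OE-*AhERF-VII* and 330 in OE-*AhDof-AI*, where it was not above background after scaling. It was at least 3.45-fold higher in OE-*AhERF-VII*. With 1144 against 696 in WT, at least 2.25-fold remained beyond WT. *NTT* (AT3G57670), a zinc-finger gene known from the transmitting tract of the flower, read 1636 against 946 in the lines and 2423 against 2267 in WT (1.35 and 1.05). *TPR3* (AT1G04190), of the tetratricopeptide repeat proteins, read 1440 against 1006, and in WT it ran the other way, with 1953 against 2476 (1.07 and 1.23). For *NTT* and *TPR3* the WT samples differed by 0.30 and -0.16 only, so that most of the direct difference remained. The same held for AT4G02580 (WT difference 0.23), AT3G01210 (0.17) and the pseudogene AT3G47260 (0.06), which have no name in the table, with direct differences of 1.25, 1.22 and 1.08. With print-block medians removed, the direct difference of *NTT* was 0.65, that of AT4G02580 0.85 and that of AT3G47260 0.75, and these calls were lost. *TPR3* (1.27) and AT3G01210 (1.33) kept theirs. The remaining 3 loci, AT1G29630, AT4G11745 and AT5G44005, had direct differences of 2.48, 1.76 and 1.37. Of these, AT1G29630 (2.14) and AT5G44005 (1.18) also lost their calls on removal of print-block medians, though they stayed past 2-fold directly. AT4G11745 (1.84), *SUC6* (1.33), *PIN6* (5.00) and AT3G17190 (5.44) kept theirs.

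The 5 loci called lower in OE-*AhERF-VII*, and so higher in OE-*AhDof-AI*, included regulators of cytokinin response, transcription and splicing. *ARR7* (AT1G19050), a type-A response regulator that dampens cytokinin signalling, read 346 in OE-*AhERF-VII* and 4132 in OE-*AhDof-AI*, with 953 and 4412 in WT (direct -3.14, WT-corrected -1.01). *NAC2* (AT5G04410, also ANAC078), of the NAC transcription factors, read 10637 and 34774, with 16354 and 24453 in WT (-1.37 and -1.08). *PRP40B* (AT3G19670), a pre-mRNA-processing protein, read 1578 and 7394, with 3567 and 6354 in WT (-1.63 and -1.07). Most of the *ARR7* difference was present in WT, while the WT samples at the other 2 spots differed by -0.29 and -0.56. AT4G23620 (18807 and 45538, with 29040 and 31127 in WT) and AT1G49015 (674 and 2536, with 2147 and 2846 in WT) have no name in the table. With print-block medians removed AT1G49015 stood at -0.48 and lost its call, as did *NAC2* (-1.28) and *ARR7* (-2.66), which stayed past 2-fold directly.

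**Figure D3:**
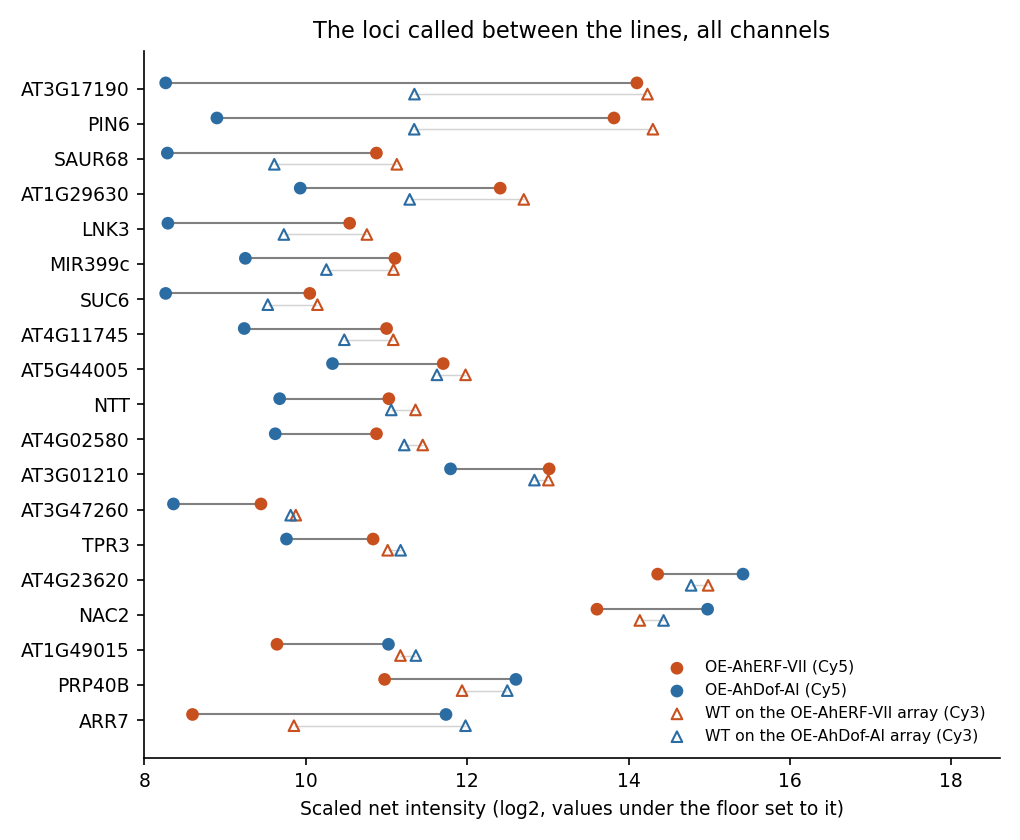
The x axis is the scaled net intensity (log2) of each called locus in the OE-*AhERF-VII* line and in the OE-*AhDof-AI* line (filled circles) and in the WT samples on the same arrays (open triangles), with 1 spot per locus. For AT3G17190, *PIN6* and *ARR7* the triangles lie apart in the same direction as the circles, and for *NTT*, AT4G02580 and AT3G47260 they nearly coincide.

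The group VII factors of Arabidopsis, the native relatives of the *AhERF-VII* product, were all above background in both lines, and none of the 5 was called. Over all 18523 loci, 0.0756% were called higher and 0.027% lower, so a list of this size would seldom hold a call. *RAP2.12* read 293 in OE-*AhERF-VII* and 444 in OE-*AhDof-AI*, with 828 and 876 in WT. *RAP2.2* (mean of 4 spots) read 833 and 905, with 1549 and 1235 in WT. *EBP* read 2353 and 2185, with 3339 and 2693 in WT. The WT-corrected differences of these were -0.11, 0.07 and 0.17. *ERF73* read 1118 and 2257, with 1578 and 2486 in WT, and *ERF71* read 5002 and 5113, with 6152 and 6652 in WT (0.08 and 0.37). The median over the 5 was 0.08, beside 0.02 over all loci, and each lay inside the middle 95% of loci.

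Genes that group VII factors are known to activate, or that act on their stability, gave no called member. Of all loci, 0.0756% were called higher and 0.027% lower. Of 20 low-oxygen loci on the array, 15 were above background in a line and 14 in all channels, with a median WT-corrected difference of 0.09. *ACO1* (AT2G19590), an enzyme of ethylene synthesis, had the highest value, 0.58, with 750 against 526 in the lines and 1284 against 1004 in WT. *ADH1*, the alcohol dehydrogenase of fermentation, was above background only in OE-*AhDof-AI* (261 against 351). *SUS1* and *AlaAT1*, a sucrose synthase and an alanine aminotransferase, were above background in neither. The plant cysteine oxidase locus AT5G15120 read 55175 and 57358, with a WT-corrected difference of -0.11. Among 6 N-degron loci above background in all channels, the arginyl transferase gene *ATE1* was at 0.41 and the ubiquitin ligase gene *PRT6* at -0.37.

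The Dof factors of Arabidopsis behaved likewise. Of 17 on the array, 15 were above background, and their median WT-corrected difference was 0.10. None was called, beside 0.0756% of all loci called higher and 0.027% called lower. *OBP2*, a regulator of glucosinolate synthesis, read 3500 in OE-*AhERF-VII* and 2389 in OE-*AhDof-AI*, with 5271 and 3786 in WT, and gave the highest value (0.42). *DAG1*, a repressor of germination (2 spots), read 1059 and 276, with 2111 and 684 in WT (0.27). The cycling Dof factors *CDF1*, *CDF2* and *CDF3*, repressors of flowering, stood at -0.25, 0.02 and 0.12. *OBP4* was at 0.41, *OBP1* at 0.10 and *OBP3* at -0.01. *TMO6* and *HCA2*, Dof genes of vascular tissue, gave -0.22 and -0.03. *DOF1*, *DOF4.7* and *ATDOF4.2* gave -0.04, 0.15 and 0.26, and the Dof loci AT5G65590 and AT4G00940 gave 0.26 and -0.19.

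Lists of hormone, redox, transport and metabolic genes were examined in the same way. These lists were written with earlier results of these data known. Across all 50 lists, 1 member was called, *NAC2* among 73 measured NAC factors. Over all 18523 measured loci the shares were 0.0756% called higher and 0.027% called lower, so few calls can fall in any list. The salicylic acid and acquired resistance genes had a median of 0.17 over 19 loci, with the glucanase gene *BGL2* (PR2) at 0.54 and *WRKY54* at 0.53. Ethylene genes had a median of 0.06 over 14 loci, with *EIN3*, the central factor of ethylene signalling, at 0.46. Jasmonate genes had a median of 0.04 over 16 loci, with the allene oxide synthase gene *AOS* at 0.36. In the abscisic acid and dehydration list (median 0.10 over 15 loci), the proline synthesis gene *P5CS1* was at -0.58 and the ABA synthesis gene *NCED3* at -0.56.

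At 1.5-fold, a limit added after seeing the data, 326 of 16270 loci (2.0%) had a WT-corrected difference that was higher in OE-*AhERF-VII* and 247 (1.52%) a lower one. With median scaling these were 1860 and 156. Of 18 antioxidant loci, 1 was past this limit upwards and 3 downwards, with a list median of 0.03. *MDAR1* (AT3G52880), a monodehydroascorbate reductase of ascorbate recycling, was the lowest of them. It read 31418 in OE-*AhERF-VII* and 55392 in OE-*AhDof-AI*, with 37068 and 36399 in WT (WT-corrected -0.99). The superoxide dismutase genes pointed both ways, with *FSD2* at 0.64, *FSD3* at -0.63 and *MSD1* at -0.59. The spots of *MSD1* read 1304 and 10510 in the lines and 2283 and 9880 in WT, so that most of its direct difference of -2.45 was shared by WT. The catalases *CAT1*, *CAT2* and *CAT3* gave -0.40, 0.28 and -0.25.

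Of 17 ion transport loci, 2 were past 1.5-fold upwards and 1 downwards, and the list median was 0.22. *SOS1*, the plasma membrane sodium-proton antiporter of salt tolerance, read 38837 against 29342 in the lines (0.59), and *VHA-A3*, a subunit of the vacuolar proton pump, read 4058 against 1870 (0.61). The plasma membrane proton pump gene *HA1* read 3444 against 9867 (-0.67). Among 14 stomatal loci, *ABCC5* (AT1G04120), an ABC transporter of guard cells, read 1983 against 1764 in the lines and 2335 against 3213 in WT. Its WT-corrected difference of 1.01 came with a direct difference of 0.78, under the 2-fold needed for a call. *CYP83B1*, of indole glucosinolate synthesis, was at 0.71 and the myrosinase gene *TGG1* at -0.66. *UGT78D2*, a flavonoid glucosyltransferase, was at -0.87.

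Other lists stayed close to all loci. Clock genes had a median of -0.09 over 9 loci, with *ZTL* at 0.43 and *LKP2* at -0.42, and flowering genes one of -0.08 over 21, with *AGL24* at -0.46 and *LFY* at 0.43. Heat shock genes had a median of 0.20 over 7 loci, with *HSP70* at 0.36, and nitrogen assimilation genes one of 0.16 over 13, with the glutamine synthetase *GLN1.3* at 0.61. The leaf markers had a median of 0.13 over 10 loci and glutaredoxins and thioredoxins one of -0.06 over 31. Markers of seed, root, trichome, vessels and flower gave medians between -0.20 and 0.10 over 2 to 5 loci each. None of these markers was called, beside 0.0756% of all loci called higher and 0.027% called lower. Their part in any line difference was not tested. The 15 mitochondrial genome loci had a median direct difference of 0.55 and a median WT-corrected difference of 0.12, with 2 past 1.5-fold upwards.

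**Figure D4:**
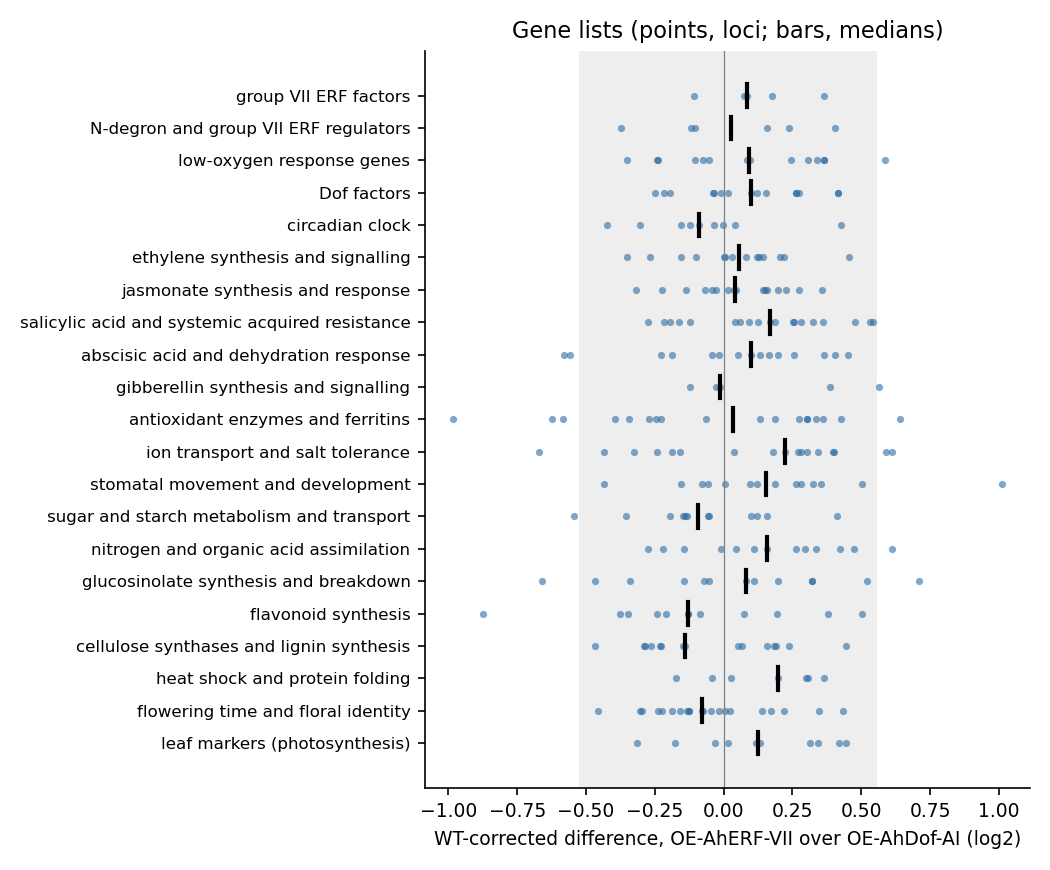
The x axis is the WT-corrected log2 difference of OE-*AhERF-VII* over OE-*AhDof-AI*. Points are loci above background in all channels, black bars are list medians, and the grey band is the middle 95% of all loci (-0.52 to 0.56). Most members lie in the band, and *MDAR1* (-0.99) and *ABCC5* (1.01) lie outside it.

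The stressed plants of both lines were on other arrays and gave a second look at the direction of these differences. On those arrays the log2 ratio of overexpressor to WT within an array was taken for OE-*AhERF-VII* after 5 days without water (WS) or in recovery 24 h after watering (R), and that of OE-*AhDof-AI* after 3 days of 400 mM NaCl (SS) was subtracted. The times and the salt level are those of the labels. The study's methods give a longer time without water, and the 400 mM solution on the first day only, with weaker salt afterwards. Line and state cannot be told apart in this difference, and both versions share the SS array. WS and R follow the labels of the scanner files. The deposited normalized file recorded for WS followed the R scan more closely than the WS scan (r = 0.995 and 0.938 across 25896 loci), and the one recorded for R followed the WS scan (0.995, and 0.931 for the R scan, across 25915), so that the names of these states may be exchanged in one kind of file.

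A locus below background in every channel of 2 stressed arrays read 0.83 in WS minus SS and 0.95 in R minus SS, because the floors and the centring differ between arrays, so that the sign is informative only above background. Of the loci called higher in Op and above background in all stressed channels, 7 of 11 were higher in WS minus SS and 4 of 10 in R minus SS. All 5 loci called lower were above background and were lower in both. Over all loci above background, 38.3% were above 0 in WS minus SS and 36.0% in R minus SS. With loess normalization within each array in place of median centring, 8 of 11 and 4 of 10 were higher, and 3 and 4 of the 5 were lower, beside 49.2% and 51.6% of all loci above 0. With the loci below background included, 10 and 8 of all 14 had the sign of Op under either centring.

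*PIN6*, the largest call with both lines measured, was at -0.37 in WS minus SS and -0.29 in R minus SS, opposite to Op. AT3G17190 was at 0.00 and -0.28, and *TPR3* at -0.90 and -0.43. *NTT* (0.92 and 0.51), *SUC6* (0.69 and 1.11) and AT4G02580 (0.80 and 0.66), which were above background in all stressed channels, had the sign of Op. *LNK3* and the pseudogene AT3G47260 had channels below background in each stressed difference, and no sign is given for them. *PRP40B* (-0.63 and -0.80) and *NAC2* (-0.35 and -0.41) had the sign of Op among the lower loci.

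The larger set past 1.5-fold in Op leaned the same way in the stressed plants. Of 300 loci higher in Op and above background in WS and SS, 223 (74.3%) were above 0 in WS minus SS, beside 38.3% of 15572 loci. Of 225 lower loci, 174 (77.3%) were below 0, beside 61.7%. For R minus SS the shares were 61.3% of 284 higher loci, beside 36.0% of all 14737, and 72.2% of 198 lower loci, beside 64.0%. With loess the shares for WS minus SS were 79.3% and 63.1%, beside 49.2% and 50.8% of all loci. Across loci the WT-corrected difference in Op and the stressed difference gave r = 0.35 for WS minus SS and 0.27 for R minus SS (0.34 and 0.26 with loess). These values share the spot, its place and the line, and with print-block medians removed they were 0.28 and 0.24 in loci with 1 spot.

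**Figure D5:**
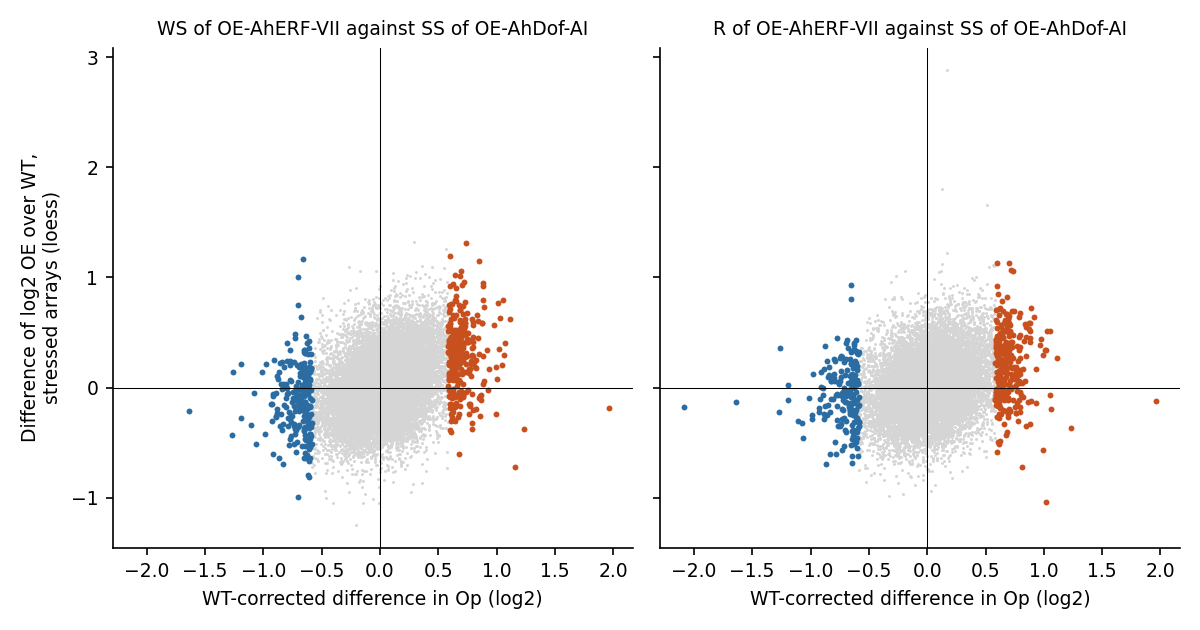
Each point is a locus, with the WT-corrected log2 difference in Op on the x axis and the difference of log2 OE over WT between the stressed arrays, after loess, on the y axis (left WS minus SS, right R minus SS). Loci past 1.5-fold in Op are orange (higher in OE-*AhERF-VII*) or blue (lower), and 79.3% of the orange points on the left lie above 0.

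With median centring, a difference of at least 1.5-fold in the same direction in Op, in WS minus SS and in R minus SS was found at 19 of 274 loci higher in Op (6.93%) and at 17 of 188 lower loci (9.04%). Over all 14437 loci, 1.59% were past 1.5-fold upwards and 2.38% downwards in both stressed differences. The loci were looked up after their values were seen, and are described only. *PFN2*, a profilin that binds actin, was higher by 0.74 in Op, 1.12 in WS minus SS and 0.96 in R minus SS. *PBG1*, a subunit of the proteasome, gave 0.88, 0.71 and 0.86, and *RS31*, a serine/arginine-rich splicing factor, gave 0.60, 0.75 and 0.76. Among the lower loci, *PRP40B* was joined by *SKIP*, a splicing factor (-0.59, -0.80 and -0.86), by the sulfate transporter gene *SULTR2;1* (-0.60, -0.84 and -0.61) and by *RGF3*, a root meristem growth factor gene (-0.79, -0.60 and -0.81). With loess, *PFN2* (1.31 and 1.06) and *RS31* (0.92 and 0.92) stayed past 1.5-fold in both stressed differences. *PBG1* (0.29 and 0.45), *PRP40B* (-0.52 and -0.46) and *SULTR2;1* (-0.42 and -0.45) fell under it in both. *SKIP* (-0.44 and -0.62) and *RGF3* (-0.28 and -0.60) fell under it in WS minus SS.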

How the data were processed

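Two-colour arrays with 30000 spots were read from the deposited scanner files, in which the authors' microarray unit recorded the mean raw intensity and the mean local background intensity of each spot. The sources used here do not name the scanner software. The deposited net Cy5 column differs from raw minus background and was not used. The authors' normalized intensities served in 1 alternative only, and a deposited log2 column holding their own comparison was not used. Net intensities were scaled between the channels of a dye by quantiles, limited at the 95th percentile of empty spots, converted to log2, subtracted and averaged over the spots of a locus, with Python 3.11.15, NumPy 2.4.6, pandas 2.3.3 and, for alternatives, limma 3.58.1 in R 4.3.3 and statsmodels 0.14.6. The steps were tested on simulated data. With 1 array per line, no p-value was computed, and the number of arrays limits the precision. Names came from the reference table (25818 of 26017 loci). The text names all called loci and, in the lists described, the called members or those with the largest WT-corrected difference, and every group VII ERF and Dof member above background. Members and lists were chosen with earlier results of these data known. Of the list entries, 15 were left out because their locus carries another name and 3 because they had no spot; 3 lists drawn by words held no locus. Promoter motifs were not analysed here.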

Additional observations from a re-analysis of the deposited data

How the results depend on the processing

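No paired analysis was possible because each state of a line was measured on 1 array, and no replicate could be left out. Counts are given as higher and lower in OE-*AhERF-VII*, first for the lines (14 and 5 as reported) and then for the WT pair (29 and 9); where a count moved by over 1.5 times the cause was not tested, except where fewer loci or a stricter limit sets it. With median scaling the lines gave 19 and 1 and the WT pair 30 and 10, and the median WT-corrected difference of all loci rose from 0.02 to 0.15, so that the Dof factors of Arabidopsis moved from 0.10 to 0.33. With normexp, loess and Aquantile the counts were 3 and 0, and 47 and 22. With the authors' normalized intensities they were 61 and 16, and 40 and 18, and 3 and 1 of the reported loci were among them. Without background subtraction, and with normexp before quantile scaling, 9 and 4, and 20 and 8, were called. Restricted to channels above background they were 12 and 5, and 17 and 2. A floor at the 99th percentile of empty spots gave 1 and 2, and 30 and 2, and no floor gave 292 and 344, and 21 and 18. Removing print-block medians gave 8 and 5, and 22 and 10. The 3-fold limit gave 2 and 0, and 8 and 2, and without subtracting the other dye 1518 and 1474, and 1203 and 1267, were past 2-fold. Loess on brightness gave 14 and 4 and the brightest spot of each locus 16 and 6. Without the 2 print blocks the WT pair gave 19 and 9. List members called, 1 as reported, were 0 with median scaling and with Aquantile, and 9 with the authors' values. Over 228 combinations of a called locus and an alternative, the call was kept in 130 and lost in 98. No direction was reversed, though values of 0 arose where both lines fell under the 99th percentile floor. Part of these outcomes was fixed in advance. The brightest spot could not change loci of 1 spot. The 3-fold and above-background limits used the same differences, so no direction could reverse there. Calls were kept in 11 of 12 alternatives for *PIN6* but in 3 for *ARR7*. They were kept in 4 for *SAUR68*, *MIR399c* and AT3G47260, and in 5 for AT4G02580 and AT5G44005. Of the lower loci, 3 of 5 kept their sign in WS minus SS with loess. Of the higher loci, 8 of 14 kept their sign in R minus SS with loci below background included, and 4 of 10 (median -0.14) above background in all stressed channels. The 1.5-fold counts, 326 and 247 as reported, were 1860 and 156 with median scaling, 192 and 212 with Aquantile, 216 and 243 without print-block medians, and 127 and 97 with the 99th percentile floor.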
